A study of Homo sapiens with 18 samples.

Results

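The genes described here are the enzymes that make NAD from its precursors and the kinases that turn NAD into NADP. There are 10 of them among the 60676 Ensembl genes of the deposited table. They were chosen by name from the textbook pathway, with earlier results of these data known, and found through their Ensembl identifiers. They are NAMPT, NMRK1, NAPRT, NADSYN1, QPRT, NMNAT1, NMNAT2, NMNAT3, NADK and NADK2. RNA was measured in 3 established human breast cancer lines that lack the usual receptors (triple-negative breast cancer, TNBC), namely MDA-MB-231, MDA-MB-468 and BT20. Each line has 3 libraries of cells given 20 mM nicotinamide (NAM) for 48 h and 3 libraries of untreated control cells, 18 in all. BT20 cells were cultured in RPMI, the MDA-MB cells in DMEM, so that a difference involving BT20 cannot be told apart from one of medium. If control RNA was collected at the start, as one reading of the methods has it, 48 h in culture cannot be told apart from NAM. A line is a single culture model, and differences between 3 lines are differences between these lines.

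NAD is built along several routes that meet at a common step. NAMPT joins nicotinamide to a ribose phosphate and gives nicotinamide mononucleotide, the step that usually limits salvage in mammalian cells, and NMRK1 reaches the same product from nicotinamide riboside. NAPRT starts from nicotinic acid and QPRT from quinolinate, the end product of the tryptophan branch, and both give nicotinic acid mononucleotide. The NMNAT enzymes attach the adenylate, NMNAT1 in the nucleus, NMNAT2 at the Golgi and in the cytosol, and NMNAT3 in mitochondria. NADSYN1 then turns the acid form into NAD, and NADK in the cytosol and NADK2 in mitochondria phosphorylate NAD to NADP. Tumours and cell lines differ in NAPRT, and cells without it depend more on NAMPT. NAM, the agent used here, is the substrate of NAMPT.

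All 10 genes were listed above 0 in each of the 18 libraries. FPKM (reads scaled to gene length and library size) moved in steps of whole reads. From these, the depth behind the FPKM of each library was recovered as 10864143 to 21755168 reads (median 16640628). The recovered reads of all genes summed to more than this depth in every library, such as 11538979 beside 10864143 in MDA-MB-231 NAM replicate 1. At this depth NAMPT was covered by 1498 to 12218 reads per library, NAPRT by 31 to 2622, NADSYN1 by 496 to 2259, NMNAT1 by 79 to 493 and NMNAT3 by 24 to 151. Epithelial markers (EPCAM, CDH1 and 3 keratins) summed to 194 to 438 FPKM with NAM and 305 to 466 in controls in MDA-MB-231, and to 1061 FPKM or more in every library of the other lines, and all 3 leukocyte markers together stayed at or under 0.563 FPKM in every library. Values below are FPKM, and fold changes are log2 changes of log2(FPKM + 1) after quantile normalization, with adjusted p from limma over all genes tested.

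The sequences before the RefSeq start sites (GRCh38.p14) are shown for 4 of the members called in a comparison of the untreated lines, to set members that were high and low in the same line side by side. NMNAT1 and NADSYN1 were both higher in MDA-MB-231 and MDA-MB-468 controls than in BT20 controls, NAMPT was highest in MDA-MB-231, and QPRT was nearly absent there. Each line holds the 250 bases before the start, 5′ to 3′ on the gene's strand, at chr1:9943225-9943474 (NMNAT1, plus), chr11:71452953-71453202 (NADSYN1, plus), chr7:106284984-106285233 (NAMPT, minus) and chr16:29678930-29679179 (QPRT, plus). Capitals mark GGGCGG, the GC box, on either strand.
NMNAT1: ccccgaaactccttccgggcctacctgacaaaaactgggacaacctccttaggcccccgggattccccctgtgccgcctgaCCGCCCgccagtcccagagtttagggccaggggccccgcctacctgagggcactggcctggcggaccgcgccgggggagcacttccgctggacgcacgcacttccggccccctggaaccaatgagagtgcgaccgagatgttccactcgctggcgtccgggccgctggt
NADSYN1: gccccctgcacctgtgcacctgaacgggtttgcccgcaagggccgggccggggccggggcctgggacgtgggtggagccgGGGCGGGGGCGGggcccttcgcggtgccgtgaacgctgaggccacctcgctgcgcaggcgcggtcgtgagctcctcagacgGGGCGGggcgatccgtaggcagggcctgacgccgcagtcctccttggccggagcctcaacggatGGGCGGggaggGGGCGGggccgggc
NAMPT: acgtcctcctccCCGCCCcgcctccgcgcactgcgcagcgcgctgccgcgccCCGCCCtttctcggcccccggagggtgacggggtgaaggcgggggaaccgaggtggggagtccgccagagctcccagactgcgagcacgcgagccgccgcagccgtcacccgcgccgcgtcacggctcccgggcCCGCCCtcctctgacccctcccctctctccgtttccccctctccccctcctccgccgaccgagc
QPRT: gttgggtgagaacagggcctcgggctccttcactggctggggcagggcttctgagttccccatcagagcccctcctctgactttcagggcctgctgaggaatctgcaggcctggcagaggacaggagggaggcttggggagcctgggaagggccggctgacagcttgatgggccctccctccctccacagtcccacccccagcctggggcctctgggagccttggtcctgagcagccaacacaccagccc

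These windows differ in CpG dinucleotides, of which NAMPT holds 34, NADSYN1 29, NMNAT1 21 and QPRT 2, against a median of 11 over 35116 promoters of the same length. QPRT has a further RefSeq start, whose window holds 1. GC boxes number 5 in NADSYN1, 3 in NAMPT, 1 in NMNAT1 and 0 in QPRT, and 42.6% of all promoters hold at least 1. None of the 4 windows holds CACGTG (E-box, in 6.34% of all promoters), TGACGTCA (the cyclic AMP response element, 1.65%) or TGATGNAAT (a C/EBP-ATF element, 0.888%), each searched on both strands and none overlapping the GC box. Over the 15 RefSeq windows of 8 members, E-boxes were found in 1 of NADK and 1 of NADK2. A match describes these letters only.

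The members lie on separate loci of GRCh38. NAMPT (ENSG00000105835) is at chr7:106248298-106285966 on the minus strand, NMRK1 (ENSG00000106733) at chr9:75060573-75088217 (minus), NAPRT (ENSG00000147813) at chr8:143574785-143578649 (minus) and NADSYN1 (ENSG00000172890) at chr11:71453109-71524107 (plus). QPRT (ENSG00000103485) is at chr16:29663279-29698699 (plus), NMNAT1 (ENSG00000173614) at chr1:9943428-9985501 (plus), NMNAT2 (ENSG00000157064) at chr1:183248237-183418380 (minus) and NMNAT3 (ENSG00000163864) at chr3:139560180-139678017 (minus). NADK (ENSG00000008130) is at chr1:1751232-1780457 (minus) and NADK2 (ENSG00000152620) at chr5:36192589-36242279 (minus). All are protein-coding genes with a single value per gene. NAMPT and NMNAT1 have annotated pseudogenes, and how reads shared with those were counted is not given in the sources used here. The gene length behind FPKM ran from 2837 bases for NAPRT to 16263 for NADSYN1 and 12983 for NMNAT3, so that levels compared between genes depend on these lengths.

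The largest fold changes of the members lay between the untreated lines, for QPRT, NAPRT and NADK2. In the control libraries the gene with the highest FPKM was NAMPT in MDA-MB-231 (63.9 ± 10.6) and QPRT in MDA-MB-468 (65.6 ± 12.6) and BT20 (67.6 ± 9.50; mean ± SD, n = 3 each). In BT20 the order continued with NAPRT, NADK2, NAMPT, NADK, NMRK1, NMNAT2, NADSYN1, NMNAT1 and NMNAT3, and the ranges of no neighbours in this order overlapped. In MDA-MB-468 QPRT was followed by NAMPT and NADK, whose ranges overlapped, as did those of NADK2 with NMRK1, NMRK1 with NADSYN1 and NMNAT2 with NAPRT, which was next to last. In MDA-MB-231 NADK, NAPRT and NADK2 came after NAMPT with overlapping ranges between neighbours, and QPRT was last. NMNAT3 stayed under 0.81 FPKM in every library of the series and never reached the filter of 1 FPKM in 3 libraries, so it was not tested.

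**Figure D1:**
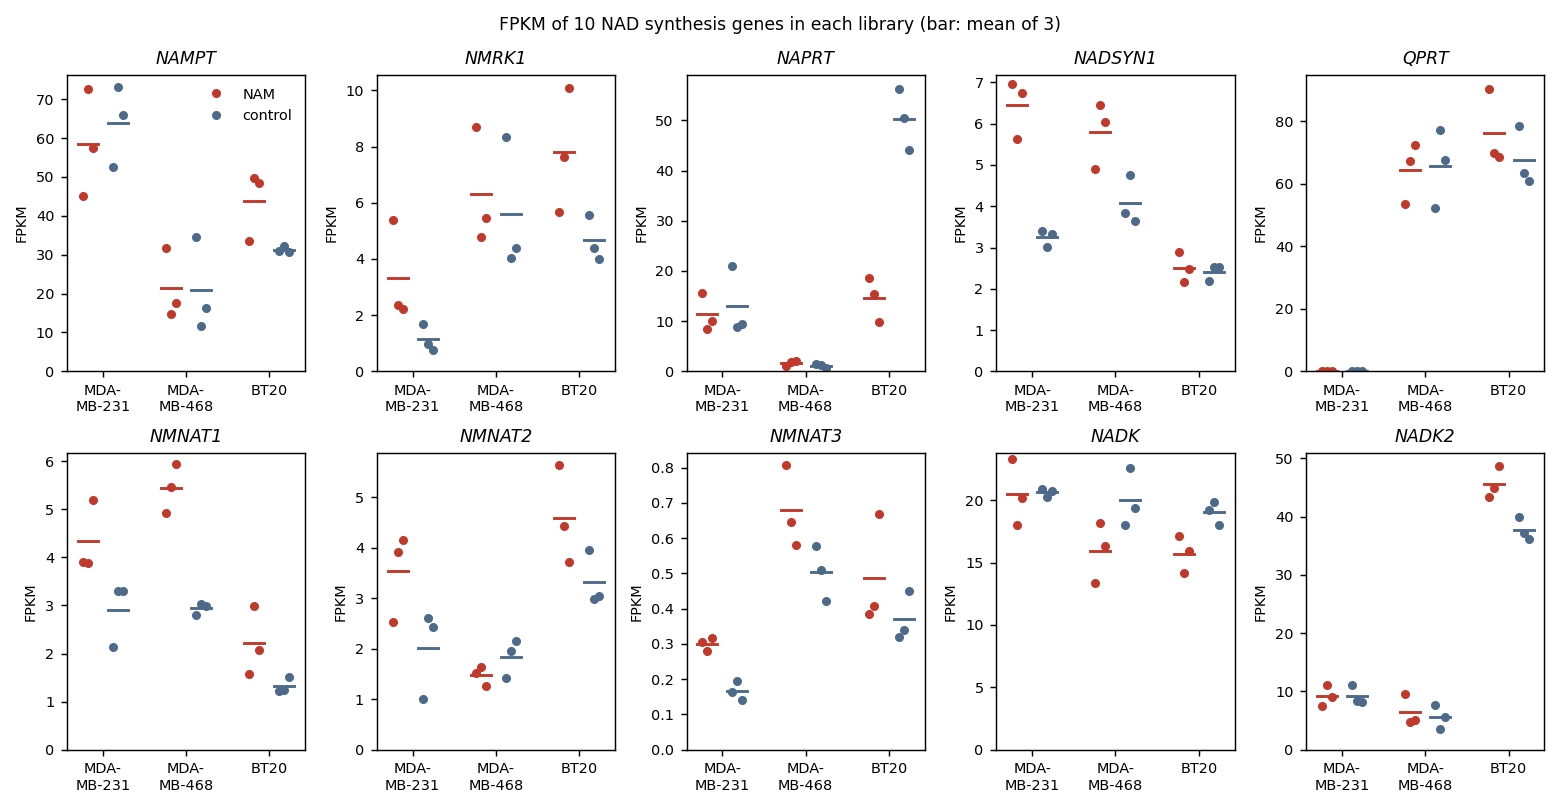
FPKM (linear axis from 0) of the 10 genes in each of the 18 libraries, with NAM in red to the left of control in blue for each line and a bar for the mean of 3 libraries. NAPRT stands highest in the BT20 controls, QPRT is near 0 in MDA-MB-231, and NADK lies between 13.3 and 23.3 FPKM in every library.

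Of the 9 members tested, 2 were higher and 2 lower in MDA-MB-468 controls than in BT20 controls, where 26.7% of 16449 genes were called higher and 28.6% lower. Between MDA-MB-231 and BT20 controls, 3 were higher and 4 lower, where 30.4% and 28.6% of all genes were. MDA-MB-231 controls had 3 members higher and 2 lower than MDA-MB-468 controls, where 29.3% and 26.5% of all genes were. The 3 comparisons share control libraries, which also serve in the comparisons with NAM. With 9 genes these shares lie near the background, so the counts by themselves say little about the pathway. The median log2 change of the members was -0.13, -0.25 and 0.18 in these comparisons, beside -0.02, 0.05 and 0.08 over all genes.

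NAPRT, the entry enzyme for nicotinic acid, separated all 3 lines. The controls had 21.0, 8.79 and 9.48 FPKM in MDA-MB-231, 1.503, 1.28 and 0.642 in MDA-MB-468, with 56.3, 50.4 and 44.1 in BT20, and no range overlapped another. The mean was 44.1 times lower in MDA-MB-468 and 3.84 times lower in MDA-MB-231 than in BT20. With MDA-MB-468 replicate 3 under 1 FPKM, NAPRT met the filter among the controls only through the other lines. This favoured calls with MDA-MB-468 lower. ENSG00000255050, an RNA on the opposite strand that overlaps NAPRT, followed the same order. Its control means were 66.7 FPKM in BT20, 18.3 in MDA-MB-231 and 1.63 in MDA-MB-468, and its part in these NAPRT values was not tested. NAPRT was lower in MDA-MB-468 (log2 fold change -4.72 ± 0.30, SE, adjusted p = 1.45e-06 by limma) and in MDA-MB-231 (-1.97 ± 0.30, adjusted p = 3.49e-04) than in BT20, and higher in MDA-MB-231 than in MDA-MB-468 (2.75 ± 0.30, adjusted p = 4.28e-05).

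QPRT, the quinolinate enzyme, was close to absent in MDA-MB-231. Its controls had 0.0480, 0.0144 and 0.0430 FPKM there, against 52.1, 77.1 and 67.6 in MDA-MB-468, with 78.5, 63.4 and 60.9 in BT20. These MDA-MB-231 values rest on 6 reads in all, against 10639 in the MDA-MB-468 controls and 11961 in the BT20 controls. The read rate in BT20 was 2018 times that in MDA-MB-231 (exact 95% interval 927 to 5501), and in MDA-MB-468 it was 2009 times (923 to 5477), intervals that cover counting error only. MDA-MB-231 was lower by limma than BT20 (-5.90 ± 0.15, adjusted p = 4.66e-09) and than MDA-MB-468 (-5.77 ± 0.15, adjusted p = 5.40e-09). QPRT passed the filter only through the other 2 lines and so had to differ. MDA-MB-468 and BT20 overlapped (-0.13, 95% interval -0.47 to 0.22, adjusted p = 0.520).

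NADK2, the mitochondrial NAD kinase, had 11.02, 8.37 and 8.21 FPKM in MDA-MB-231 controls, 7.62, 3.62 and 5.67 in MDA-MB-468 controls and 39.9, 37.2 and 36.1 in BT20 controls. The BT20 libraries lay above all others, and the mean was 4.10 times lower in MDA-MB-231 and 6.70 times lower in MDA-MB-468 than in BT20. NADK2 was lower in MDA-MB-468 (-2.61 ± 0.20, adjusted p = 5.94e-06) and MDA-MB-231 (-1.89 ± 0.20, adjusted p = 3.96e-05) than in BT20 by limma. It was higher in MDA-MB-231 than in MDA-MB-468 (0.73 ± 0.20, adjusted p = 0.0134), a call lost without MDA-MB-468 control replicate 2 (adjusted p = 0.0539). SKP2, a gene on the opposite strand that shares 7.28% of the exon bases of NADK2, followed the same order, with 20.8 ± 2.76, 12.4 ± 1.85 and 50.49 ± 0.818 FPKM in MDA-MB-231, MDA-MB-468 and BT20 controls (SD, n = 3), and its part in the NADK2 values was not tested. NADK, the cytosolic kinase, ranged from 17.99 to 22.6 FPKM over all 9 control libraries, and no comparison between lines passed the test (adjusted p = 0.275 to 0.610 by limma). The 95% interval of the log2 difference that reached farthest from 0, MDA-MB-231 against BT20, was -0.10 to 0.41.

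NAMPT was highest in MDA-MB-231. Its controls had 52.4, 73.2 and 65.9 FPKM in MDA-MB-231, 34.4, 11.6 and 16.4 in MDA-MB-468, with 30.9, 32.2 and 30.7 in BT20. The MDA-MB-231 libraries lay above all others, while replicate 1 of MDA-MB-468 was above BT20 and the other MDA-MB-468 libraries were below it. NAMPT was higher in MDA-MB-231 than in MDA-MB-468 (1.69 ± 0.34, adjusted p = 0.00217 by limma) and than in BT20 (0.99 ± 0.34, adjusted p = 0.0299). The second call was lost without any single BT20 control, without MDA-MB-231 control replicate 2 or without replicate 3 (adjusted p up to 0.0877), and with no filter on low values (0.0806). MDA-MB-468 did not pass against BT20 (-0.70, 95% interval -1.46 to 0.06, adjusted p = 0.105), and without MDA-MB-468 control replicate 1 it did (-1.12, adjusted p = 0.00269).

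**Figure D2:**
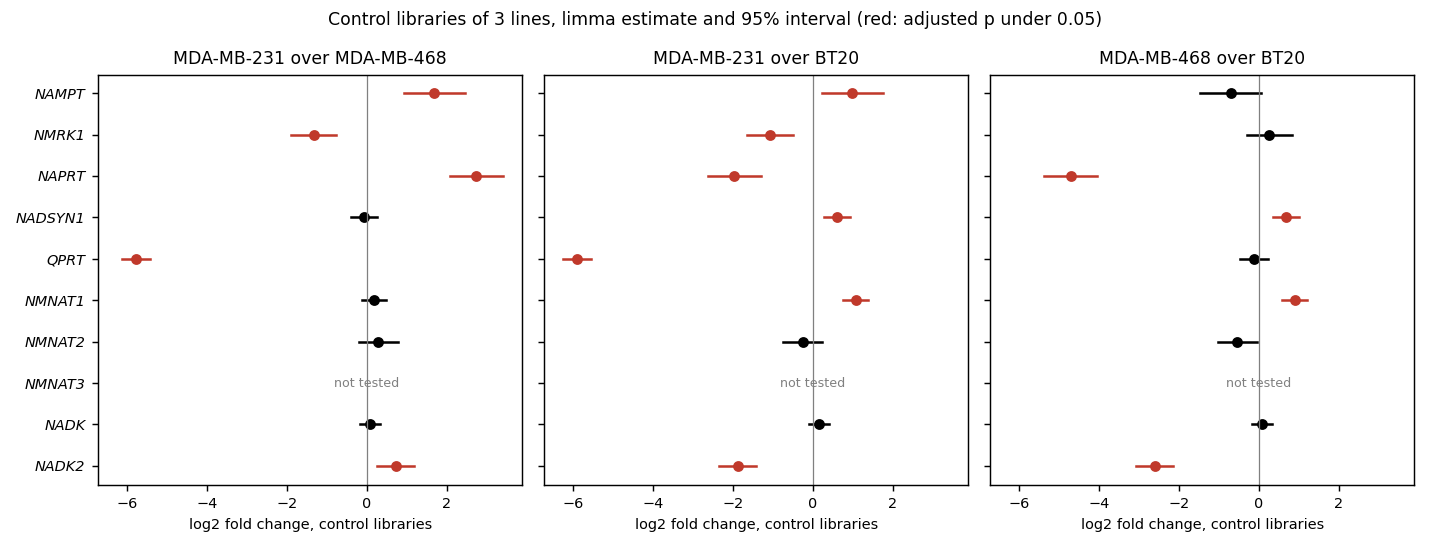
Log2 fold change (limma estimate, horizontal axis) of each member between the control libraries of 2 lines, the first named over the second, with its 95% interval as a bar. Red marks an adjusted p under 0.05; NMNAT3 was not tested. NAPRT, QPRT and NADK2 lie farthest from 0, and the NADK interval crosses 0 in every panel.

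NMRK1, the riboside kinase, was lower in MDA-MB-231. Its controls had 1.67, 0.986 and 0.764 FPKM there, against 8.34, 4.03 and 4.39 in MDA-MB-468, with 5.58, 4.41 and 4.01 in BT20. MDA-MB-231 lay below both other lines without overlap, by limma against BT20 (-1.07 ± 0.25, adjusted p = 0.00519) and against MDA-MB-468 (-1.33 ± 0.25, adjusted p = 0.00165). Among the controls NMRK1 met the filter only through the other lines, which favoured a call of lower in MDA-MB-231. NMNAT1, the nuclear adenylyltransferase, and NADSYN1, the last enzyme of the acid route, went the other way. NMNAT1 controls had 2.13, 3.29 and 3.30 FPKM in MDA-MB-231, 2.79, 3.04 and 2.99 in MDA-MB-468, with 1.22, 1.24 and 1.52 in BT20. BT20 lay below both other lines, with log2 changes of 1.07 ± 0.14 for MDA-MB-231 (adjusted p = 1.11e-04 by limma) and 0.89 ± 0.14 for MDA-MB-468 (adjusted p = 4.19e-04).

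NADSYN1 controls had 3.40, 3.00 and 3.34 FPKM in MDA-MB-231, 3.83, 4.75 and 3.64 in MDA-MB-468, with 2.18, 2.54 and 2.52 in BT20. Again BT20 was lowest in every library, with 0.61 ± 0.14 for MDA-MB-231 (adjusted p = 0.00483 by limma) and 0.67 ± 0.14 for MDA-MB-468 (adjusted p = 0.00320). With no further normalization of the FPKM the first was 0.32 and missed the threshold (adjusted p = 0.0507). NMNAT2, the cytosolic adenylyltransferase, had 1.01 to 2.60 FPKM in MDA-MB-231, 1.41 to 2.15 in MDA-MB-468 and 2.98 to 3.95 in BT20 controls, and passed in no comparison (adjusted p = 0.0609 to 0.345). Without MDA-MB-231 control replicate 1 it passed for MDA-MB-468 against BT20 (0.0221) and for MDA-MB-231 against MDA-MB-468 (0.0280), as did NMNAT1 in the second (0.0484). Of the summed FPKM of the 3 NMNAT genes, NMNAT1 made up 54.1 to 64.5% in MDA-MB-231 controls, 53.8 to 58.4% in MDA-MB-468 controls and 22.3 to 30.4% in BT20 controls. In bulk RNA, fewer cells with a transcript and less of it per cell cannot be told apart.

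With NAM, a single member fell, NAPRT in BT20. Of 9 members tested in BT20, 1 was lower and 0 were higher, where 8.51% of 14965 genes were lower and 8.16% higher. The count of 0 higher was the same by limma-voom on the recovered reads, and 3 members (NAMPT, NMRK1 and NADK2) were higher at an unadjusted p under 0.05. The share of all genes at an unadjusted p is not given here or below, so such counts cannot be set against a background. The median log2 change of the members was 0.32, beside 0.02 over all genes tested.

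NAPRT had 18.6, 15.5 and 9.93 FPKM in NAM-treated BT20 cells, against 56.3, 50.4 and 44.1 in control cells. The groups did not overlap, and the NAM mean was 0.292 of the control mean (14.7 ± 4.41 against 50.3 ± 6.11; SD, n = 3 each). The log2 fold change was -1.71 ± 0.23 (adjusted p = 0.00383 by limma), and it ran from -1.91 to -1.46 with an adjusted p of at most 0.0241 when each BT20 library was left out in turn. NAPRT was low in MDA-MB-468, with 1.10, 1.78 and 2.04 FPKM with NAM and 1.503, 1.28 and 0.642 in controls (0.25, 95% interval -0.27 to 0.78, adjusted p = 0.553). In MDA-MB-231 it had 15.7, 8.37 and 10.0 FPKM with NAM and 21.0, 8.79 and 9.48 in controls (-0.18, interval -1.13 to 0.76, adjusted p = 0.846).

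NAPRT was also the 1 member of 9 with a response that differed between lines (F test of the line-by-treatment interaction, adjusted p = 0.0170 by limma), where 9.36% of 17784 genes differed. The NAM effect was higher in MDA-MB-468 than in BT20 by 2.02 ± 0.45 on the log2 scale (adjusted p = 0.0133), where 2.24% of all genes were called higher and 3.19% lower. NAPRT averaged 1.14 FPKM in MDA-MB-468 controls, and on the log2(FPKM + 1) scale it could not fall there as far as in BT20. Part of this difference was thus fixed in advance. The NAM effect was higher in MDA-MB-231 than in BT20 by 1.61 ± 0.45 (adjusted p = 0.0489), where 2.92% were higher and 2.42% lower. This second difference was lost without 14 of the 18 libraries (adjusted p up to 0.137) and with a pseudocount of 0.1 (0.122), no filter (0.0866) or median scaling (0.0978). The F test missed the threshold without BT20 NAM replicate 3 (adjusted p = 0.0563). With replicate number as a block within each line, 3 members passed it, namely NAPRT (adjusted p = 0.00246), NMNAT2 (0.0463) and NADSYN1 (0.0492), where 22.0% of all genes did.

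A long noncoding RNA on the opposite strand, ENSG00000255050, shares 30.1% of the exon bases of NAPRT, and its values moved with those of NAPRT. It had 21.8 ± 7.72 FPKM with NAM and 66.7 ± 9.77 in controls in BT20. The MDA-MB-468 values were 2.24 ± 0.381 with NAM and 1.63 ± 0.156 in controls, and the MDA-MB-231 values 15.0 ± 4.39 and 18.3 ± 9.04 (SD, n = 3 each). Since the strand setting of the counting is not given, reads of these overlapping genes may not be told apart, and the part of this RNA in the NAPRT values was not tested. In BT20 the summed epithelial markers were 1096 to 1393 FPKM with NAM and 1563 to 1811 in controls, a gap that lay in the keratins, while EPCAM had 131 ± 2.87 and 103 ± 17.7 FPKM and 0 of the 5 markers passed by limma. CDH5, an endothelial marker, was lower there (6.69 ± 2.37 and 19.8 ± 6.02 FPKM, adjusted p = 0.0153), and the part of these markers was not tested.

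The order of NAMPT and NAPRT, the enzymes for the amide and the acid form of the vitamin, differed between NAM-treated and control BT20 cells. The ratio of NAMPT to NAPRT FPKM was 1.80 to 4.88 in NAM-treated BT20 libraries and 0.549 to 0.695 in BT20 controls. The MDA-MB-468 ratio was 8.30 to 29.0 with NAM and 9.08 to 25.5 in controls, and the MDA-MB-231 ratio 2.88 to 8.69 with NAM and 2.497 to 8.34 in controls. The BT20 controls were thus the one group with more NAPRT than NAMPT by FPKM in every library.

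**Figure D3:**
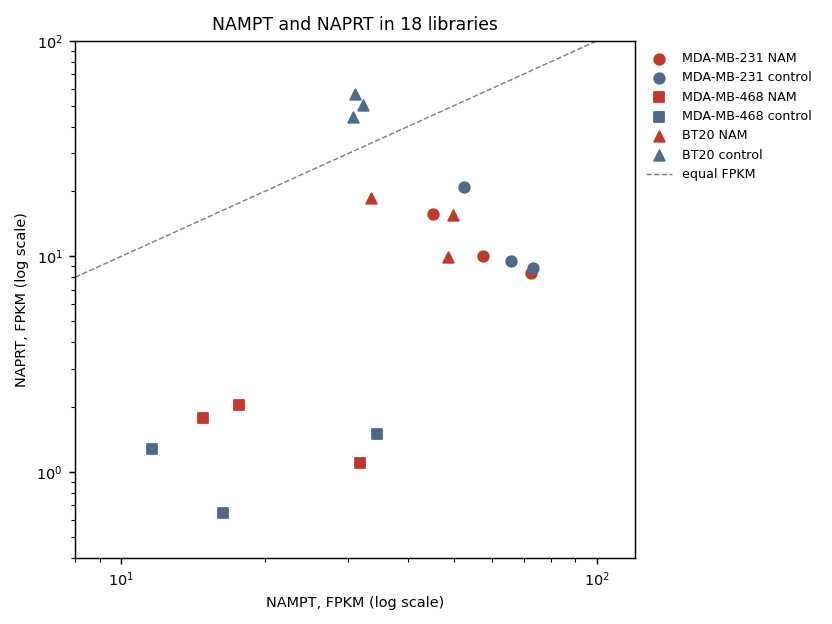
NAPRT against NAMPT, both in FPKM on log axes, 1 point per library, with shape for the line and colour for NAM (red) or control (blue). The 3 BT20 controls are the points above the dashed line of equal FPKM, with NAPRT at 44.1 to 56.3, and the 3 NAM-treated BT20 libraries lie below it.

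NAMPT itself did not pass in any line. In BT20 it had 33.5, 49.8 and 48.5 FPKM with NAM, against 30.9, 32.2 and 30.7 in controls. All NAM libraries lay above all controls, but replicate 1 only just, and the log2 fold change was 0.50 ± 0.18 (95% interval 0.09 to 0.91, adjusted p = 0.0860 by limma). Without BT20 NAM replicate 1 it was 0.68 (adjusted p = 0.0136), and NMRK1 (0.77, adjusted p = 0.0281) and NMNAT1 (0.59, adjusted p = 0.04998) passed as well. In MDA-MB-468 NAMPT had 31.8, 14.8 and 17.7 FPKM with NAM and 34.4, 11.6 and 16.4 in controls (0.09, interval -0.86 to 1.04, adjusted p = 0.926). In MDA-MB-231 it had 45.2, 72.7 and 57.5 FPKM with NAM and 52.4, 73.2 and 65.9 in controls (-0.11, interval -0.84 to 0.62, adjusted p = 0.892).

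In both of these lines the NAMPT value went with the replicate number more than with NAM. Replicate 1 was the highest of its group in MDA-MB-468 and the lowest in MDA-MB-231, with NAM and without. The genes whose pattern was most like NAMPT over the 18 libraries, after each line's mean was taken off, were DENND10 (Pearson r = 0.976), ATF1 (0.962) and MYNN (0.962) among 9372 genes averaging 5 FPKM or more. Without that step they were LMAN1 (0.969), ZNF22 (0.965) and MRPS10 (0.959). DENND10 likewise reached 8.64 FPKM in the highest MDA-MB-468 library with NAM and 8.31 in the highest control. Replicate 1 was also the library of lowest depth in each group, and the values describe likeness only.

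In MDA-MB-468 a single member, NMNAT1, passed with NAM, as 1 of 9 tested, where 3.56% of 14752 genes were higher and 5.43% lower. NMNAT1 had 4.93, 5.47 and 5.94 FPKM with NAM, against 2.79, 3.04 and 2.99 in controls. The groups did not overlap, the means were 5.44 ± 0.507 and 2.94 ± 0.130 (SD, n = 3 each), and the log2 fold change was 0.66 ± 0.16 (adjusted p = 0.0413 by limma). The call was lost without any single control, without NAM replicate 2 or without NAM replicate 3 (adjusted p up to 0.216), with a log2 fold change of 0.58 to 0.76 over all 6 fits. Of 4 mesenchymal markers, FN1 alone passed the filter in this line, at 3.44 ± 0.164 FPKM with NAM and 23.96 ± 2.52 in controls (adjusted p = 1.27e-04), while VIM (0.441 ± 0.162 and 0.205 ± 0.0704 FPKM), ZEB1 and CDH2 stayed below 1 FPKM, and the part of FN1 in the result was not tested. No member was lower, at an unadjusted p under 0.05 or by limma-voom either, and the median change of the members was 0.13, beside 0.02 over all genes.

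NMNAT1 also had higher values with NAM in the other lines, without passing the test. In BT20 it had 1.57, 2.98 and 2.08 FPKM with NAM and 1.22, 1.24 and 1.52 in controls (0.42 ± 0.19, adjusted p = 0.160 by limma), and in MDA-MB-231 3.91, 3.89 and 5.20 with NAM and 2.13, 3.29 and 3.30 in controls (0.36 ± 0.19, adjusted p = 0.352). The NAM libraries lay above the controls in each line. The interaction did not pass (adjusted p = 0.624), which does not show that the lines respond alike.

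NADSYN1 in MDA-MB-231 had 6.95, 5.64 and 6.75 FPKM with NAM, against 3.40, 3.00 and 3.34 in controls. The groups did not overlap and the NAM mean was 1.99 times the control mean, with a log2 fold change of 0.70 ± 0.20 (95% interval 0.22 to 1.19, adjusted p = 0.130 by limma). In MDA-MB-468 it had 4.91, 6.45 and 6.04 FPKM with NAM and 3.83, 4.75 and 3.64 in controls, again without overlap (0.38 ± 0.19, adjusted p = 0.269). In BT20 it had 2.88, 2.15 and 2.47 FPKM with NAM and 2.18, 2.54 and 2.52 in controls, groups that overlapped (0.00, interval -0.34 to 0.34, adjusted p = 0.995). NMRK1 in MDA-MB-231 had 5.38, 2.35 and 2.23 FPKM with NAM, against 1.67, 0.986 and 0.764 in controls, also without overlap (0.85 ± 0.40, adjusted p = 0.307). In BT20 NMRK1 had 5.67, 7.64 and 10.1 FPKM with NAM and 5.58, 4.41 and 4.01 in controls (0.59 ± 0.21, adjusted p = 0.0881).

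In MDA-MB-231 0 of 8 members tested passed in either direction, where 0.829% of 13869 genes were higher and 1.09% lower. NADSYN1 was the 1 member with an unadjusted p under 0.05 and the 1 called by limma-voom (adjusted p = 0.0465). Without both libraries of replicate 1, NADSYN1 (0.0228) and NMNAT2 (0.0424) passed. The shares of all genes called by limma-voom or without replicate 1 are not given here. Here and in MDA-MB-468 the same-numbered libraries deviated together, though mostly as replicate 1 against replicates 2 and 3. Replicate number was also used as a block. With it, NADSYN1 (adjusted p = 0.0179) and NMRK1 (0.0262) were higher in MDA-MB-231, where 12.6% of all genes were higher and 11.4% lower. NMRK1 met the filter in MDA-MB-231 only through its NAM libraries, which favoured a call of higher. With the block in MDA-MB-468, NADSYN1 (0.0474) joined NMNAT1 (0.00519), where 15.4% were higher and 14.3% lower. Each of these genes was higher with NAM in all 3 same-numbered pairs of its line. A call with the block favours such agreement, so it adds no support of its own.

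**Figure D4:**
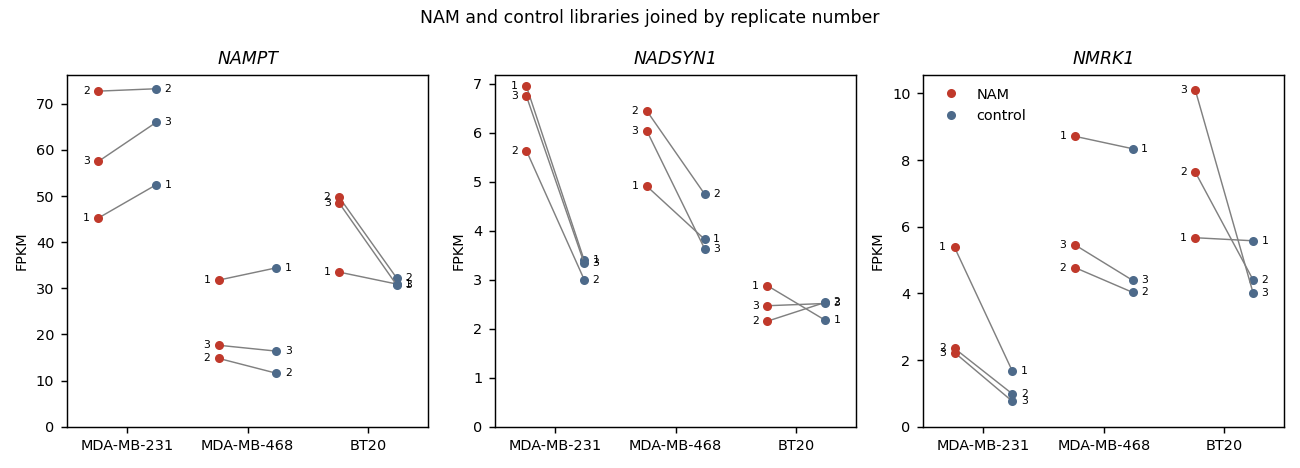
FPKM (axis from 0) of NAMPT, NADSYN1 and NMRK1, with NAM (red, left) and control (blue, right) libraries of the same replicate number joined by a line; the small digits give the replicate number. NADSYN1 lines fall toward the control in all 3 pairs of MDA-MB-231 and MDA-MB-468, while NAMPT lines of those 2 lines run nearly level at different heights.

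QPRT, NADK and NADK2 had no call with NAM in any line, with the replicate block or without it. QPRT had 68.6 to 90.4 FPKM with NAM and 60.9 to 78.5 in controls in BT20 (adjusted p = 0.380 by limma). In MDA-MB-468 it had 53.5 to 72.4 FPKM with NAM and 52.1 to 77.1 in controls (adjusted p = 0.935). In MDA-MB-231, where it was not tested, it had 12 reads with NAM and 6 in controls, a rate ratio of 1.97 (exact 95% interval 0.684 to 6.396). NADK2 had 43.4 to 48.7 FPKM with NAM and 36.1 to 39.9 in controls in BT20 (0.32 ± 0.14, adjusted p = 0.146), and NADK 14.2 to 17.1 and 17.99 to 19.9 (-0.25 ± 0.15, adjusted p = 0.276). The ratio of NADK2 to NADK FPKM was 2.54 to 3.18 with NAM and 1.87 to 2.08 in controls in BT20, and at most 0.721 in every library of the other lines. NMNAT2 had 3.72 to 5.64 FPKM with NAM and 2.98 to 3.95 in controls in BT20. NMNAT3, which was not tested, had 0.279 to 0.318 FPKM with NAM and 0.142 to 0.196 in controls in MDA-MB-231 (195 and 107 reads in all), and 0.582 to 0.809 and 0.421 to 0.578 in MDA-MB-468 (404 and 278 reads). Its groups did not overlap in these lines, and they did in BT20.

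**Figure D5:**
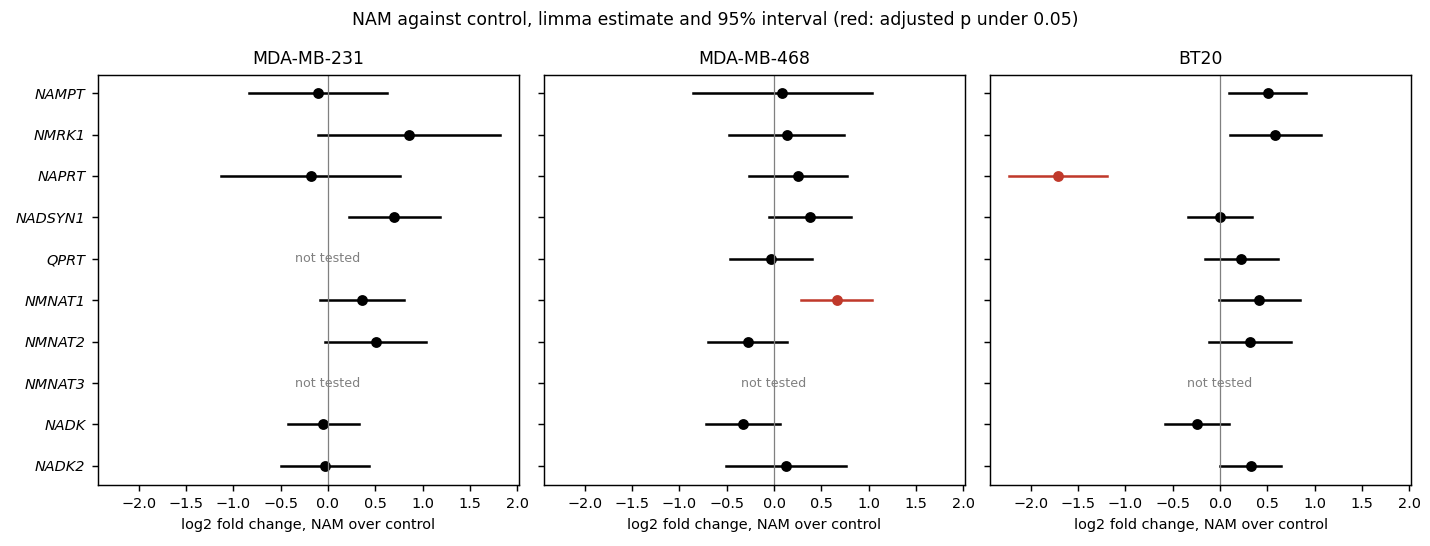
Log2 fold change (limma estimate, horizontal axis) of each member with NAM over control in each line, with its 95% interval as a bar. Red marks an adjusted p under 0.05 without the replicate block, reached by NAPRT in BT20 (-1.71) and NMNAT1 in MDA-MB-468 (0.66); not tested means under the filter on low values.

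Around these enzymes, 42 further genes of NAD metabolism were counted from lists of precursor supply and removal, the tryptophan branch, NAD glycohydrolases, NAD consumers (sirtuins and PARPs), and NAD(P) turnover and repair. With NAM, 1 was higher and 1 lower of 30 tested in BT20, where 8.16% and 8.51% of all genes were. MDA-MB-468 had 0 higher and 2 lower of 30 (3.56% and 5.43% of all genes), and MDA-MB-231 0 higher and 1 lower of 30 (0.829% and 1.09%). These counts lie near or under the background. At an unadjusted p under 0.05, 4 were higher and 6 lower in BT20, and 2 higher and 4 lower in each other line, with no share of all genes to set beside them. Limma-voom called 1 higher and 3 lower in BT20, 0 higher and 2 lower in MDA-MB-468, with 0 either way in MDA-MB-231. The share of all genes called by limma-voom is not given here either. With the replicate block, 5 were higher and 8 lower in MDA-MB-468 (15.4% and 14.3% of all genes) and 3 higher and 4 lower in MDA-MB-231 (12.6% and 11.4%), SLC25A51 (adjusted p = 0.0312, higher) and SLC29A1 (0.0171, lower) in the first and PNP (0.0323, lower) in the second among them. Of the genes called by limma, all but KYNU were from the supply and removal list. In BT20 SLC25A51, the mitochondrial NAD carrier, was higher (6.50 ± 0.215 FPKM with NAM and 4.17 ± 0.215 in controls; SD, n = 3; adjusted p = 0.0485 by limma). SLC29A1, a nucleoside carrier, was lower there (5.31 ± 1.94 and 15.5 ± 0.798 FPKM, adjusted p = 0.00769).

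In MDA-MB-468 SLC12A8, described in mice as a carrier of nicotinamide mononucleotide, was lower (2.52 ± 0.325 FPKM with NAM and 4.89 ± 0.694 in controls, adjusted p = 0.0347 by limma). KYNU, kynureninase of the tryptophan branch that leads to quinolinate, was lower too (5.30 ± 1.33 and 12.4 ± 5.42 FPKM, adjusted p = 0.0490). In MDA-MB-231 AOX1, which oxidizes methylated nicotinamide, was lower (2.36 ± 1.21 and 14.9 ± 7.14 FPKM, adjusted p = 0.0468, or 0.0697 by limma-voom). Of these calls, SLC29A1 alone held without each library in turn, though not with no filter on low values (adjusted p = 0.0626). SLC25A51 was lost without 5 of the 6 BT20 libraries (all but NAM replicate 1, adjusted p up to 0.224), and SLC12A8 (all but control replicate 1, up to 0.173) and AOX1 (all but control replicate 1, up to 0.264) likewise in their lines. KYNU was lost without control replicate 3 or any NAM library of MDA-MB-468 (up to 0.187). SLC25A51 also missed the threshold with a pseudocount of 0.1, trend and robust options or the replicate block (adjusted p up to 0.0839 by limma). SLC12A8 missed it with no filter (0.0686). KYNU missed it with a pseudocount of 0.1, no filter, no further normalization or trend and robust options (up to 0.150). AOX1 missed it under the same settings as KYNU, with median scaling and by limma-voom (up to 0.0938).

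The same 42 genes were also compared between the untreated lines. Of 32 tested, 12 were higher and 4 lower in MDA-MB-468 than in BT20, where 26.7% and 28.6% of all genes were. MDA-MB-231 had 12 higher and 7 lower than BT20 (30.4% and 28.6% of all genes), and 9 higher and 12 lower than MDA-MB-468 (29.3% and 26.5%). NNMT, which methylates nicotinamide, had 41.0 ± 23.7 FPKM in MDA-MB-231 controls, 0.0164 ± 0.0149 in MDA-MB-468 controls and 1.76 ± 0.158 in BT20 controls. NT5E, the surface enzyme that frees nicotinamide riboside from its nucleotide, had 99.1 ± 28.6, 30.0 ± 7.06 and 8.74 ± 1.92 FPKM in the same order. KYNU had 1.56 ± 0.312, 12.4 ± 5.42 and 0.190 ± 0.0195 FPKM, and NNT, which passes electrons between NADH and NADP in mitochondria, 10.2 ± 1.87, 7.11 ± 0.379 and 1.80 ± 0.254 (SD, n = 3 each). Each of these 4 genes was called in every comparison of the lines (largest adjusted p = 0.00568 by limma). NNMT, with 2 reads in the MDA-MB-468 controls, and KYNU, under 0.21 FPKM in the BT20 controls, passed the filter only through the lines where they were higher, and so had to differ from those lines.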

How the data were processed

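RNA of 3 cell lines was sequenced in 6 groups of 3 libraries. Per the labels and the methods, the authors trimmed the reads with cutadapt 2.8, aligned them to GRCh38.p13 with TopHat2 2.1.1, counted them per gene with HTSeq 0.11.3 and deposited the values as FPKM, with gene lengths of Ensembl release 99. The strand setting of the counting is not given in the sources used here, and the labels name a stranded kit while the methods name a TruSeq RNA kit without that word. In the deposited FPKM of 60676 genes, 39934 of the 39935 genes above 0 came out as whole reads within a tolerance of 0.01 reads, which gave the depth behind each library's FPKM. No column belonged to a sample outside the series.

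Genes reaching 1 FPKM in 3 or more of the fitted libraries were put on the log2(FPKM + 1) scale, quantile-normalized and compared with limma 3.58.1 in R 4.3.3. Each line was fitted on its own for NAM, the 9 control libraries together for the lines, and all 18 libraries for the interaction. A gene was called at a Benjamini-Hochberg adjusted p under 0.05 over all genes tested. Fold changes are on the log2(FPKM + 1) scale, which understates the change of low genes. The fit was tried on simulated reads with known changes, drawn independently for each library. That simulation held no deviation shared by same-numbered libraries, so it does not show how the fit does on these data. An exact permutation test of 1 gene over groups of 3 cannot go below a two-sided p of 0.1, so none is given. The p-values measure the spread between these libraries, since the sources do not say whether they came from separate cultures.

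NAM and control libraries share replicate numbers. Deviations from the group means correlated across genes between same-numbered libraries at 0.128 to 0.706 in MDA-MB-468, 0.616 to 0.740 in MDA-MB-231 and -0.081 to 0.100 in BT20. Replicates 2 and 3 also went together across numbers. In MDA-MB-468 NAM replicate 3 stood at 0.321 with control replicate 2, above its 0.128 with control replicate 3. In MDA-MB-231 these values were 0.688 and 0.716. The main fits held no pairing in any line, and replicate number entered only as the block among the alternatives. The alternatives were a pseudocount of 0.1, no filter, no further normalization, median scaling, trend and robust options, limma-voom on the recovered reads, an added fold limit of 0.58 (log2), the replicate block and each library left out. Leaving out both libraries of replicate 1 was added after seeing the data. The members and gene lists were chosen with earlier results of these data known. Named are all 10 members, and for NAM and its differences between lines up to 4 genes per pathway list, direction and comparison with the largest change among those called. Between the untreated lines 4 pathway genes were named, each called in every comparison, and the other genes called there were not named. The 3 genes most like NAMPT were also named. Coordinates are those of GENCODE release 44 on GRCh38, and upstream sequences those of RefSeq on GRCh38.p14.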

Additional observations from a re-analysis of the deposited data

Results flagged for a closer look

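The response of NAPRT to NAM differed between lines by a test of the difference itself. NAPRT averaged 1.14 FPKM in MDA-MB-468 controls, and on the log2(FPKM + 1) scale it could not fall there as far as in BT20. The NAM effect was higher in MDA-MB-468 than in BT20 by 2.02 on the log2 scale (adjusted p = 0.0133 by limma), and stayed past the threshold without each library in turn (adjusted p up to 0.0491). It was higher in MDA-MB-231 than in BT20 by 1.61 (adjusted p = 0.0489), which was lost with a pseudocount of 0.1 (0.122), no filter (0.0866) and median scaling (0.0978), and without 14 of the 18 libraries (adjusted p up to 0.137), all but BT20 NAM replicate 1, MDA-MB-468 NAM replicate 1, MDA-MB-231 control replicate 1 and MDA-MB-231 NAM replicate 2.

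Outside the 10 enzymes, PNP, which splits nicotinamide riboside, had an effect higher in MDA-MB-468 than in BT20 by 0.97 (adjusted p = 0.0268 by limma), lost without 9 libraries of these lines (all but BT20 NAM replicate 2 and MDA-MB-468 control replicate 2 and NAM replicate 1, adjusted p up to 0.0787), with a pseudocount of 0.1 (0.0504) and by limma-voom (0.0598). The AOX1 effect was lower in MDA-MB-231 than in BT20 (-2.23, adjusted p = 0.00196) and than in MDA-MB-468 (-2.13, adjusted p = 0.00170, but 0.683 by limma-voom), lines in which AOX1 was under 0.1 FPKM. AOX1 passed the filter only through MDA-MB-231, so that its effect in the other lines is held near 0 on this scale and the difference restates the MDA-MB-231 change. The KYNU effect was higher in MDA-MB-231 than in MDA-MB-468 by 1.24 (adjusted p = 0.0215), lost without MDA-MB-468 NAM replicate 2 or 3 or MDA-MB-231 control replicate 2 or 3 (adjusted p up to 0.0708).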

How the results depend on the processing

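The replicate block raised the members higher with NAM from 1 to 2 in MDA-MB-468, from 0 to 2 in MDA-MB-231, and the members past the interaction test from 1 to 3. It also brought the NAM effect of MDA-MB-231 against BT20 past the threshold for NAMPT (adjusted p = 0.0449) and NADSYN1 (0.0294), and that of MDA-MB-231 against MDA-MB-468 for NMNAT2 (0.0466), and changed no other call of a member. Limma-voom raised the MDA-MB-231 count to 1, and no further normalization the interaction count to 2. Without both libraries of replicate 1, 2 members were higher in BT20 and 2 in MDA-MB-231. With any 1 library left out, the members higher with NAM numbered 0 to 3 in BT20, 0 in MDA-MB-231 and 0 to 1 in MDA-MB-468. The interaction count was 0 to 1, and 2 to 5 members were higher in MDA-MB-231 than in MDA-MB-468 controls, 5 of them without MDA-MB-231 control replicate 1. Apart from the block, the share of all genes called under each of these settings is not given here. These counts therefore cannot be set against a background. No call of a member changed direction under any alternative. Low depth limits QPRT in MDA-MB-231 (1 to 5 reads per library), where a change with NAM was not detectable, and NMNAT3 (24 to 151) was not tested because it lay under the filter.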
